A study of Homo sapiens with 10 samples.

Results

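The 41 genes described here are classic targets of type I interferon, a group of cytokines that cells release on sensing viral or misplaced nucleic acids. The genes were listed by name and are 41 of the 36601 human genes counted in each library. Type I interferon binds a surface receptor whose kinases phosphorylate signal transducers such as STAT2, which works with IRF9 in a complex that binds a short promoter element, the interferon-stimulated response element. The induced genes encode RNA sensors, enzymes that block viral translation, proteins that hold viruses at membranes, and regulators of the pathway itself. In brain, a small population of microglia that carries these transcripts is well known from ageing and amyloid models.

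Human microglia were grown from H9 (WA09) embryonic stem cells, a human cell line, and had matured in mouse brain before their RNA was counted cell by cell. All hosts carried the App NL-G-F knock-in, which produces amyloid plaques with humanised Aβ, and lacked Rag2 and Il2rg, so that they had no T, B or NK cells, and all expressed human CSF1. One genotype also carried Csf1r ΔFIRE/ΔFIRE, a deletion of a Csf1r enhancer that leaves the mouse without microglia of its own (FIRE-deleted mice), and the other kept the enhancer (FIRE-intact mice). Per the study's methods, mouse microglia of hosts with the enhancer were depleted with the CSF1R inhibitor BLZ945 before grafting, so genotype and host preparation cannot be told apart. The methods describe grafted hosts of that kind for a phagocytosis assay, treated at a later age than the labels here give. By the labels, mice received Lecanemab, a humanised antibody to Aβ, or a human IgG1 control from 4 months of age. Doses of 10 mg/kg were given weekly into the peritoneum for 8 weeks. Human cells were sorted by CD11b and human CD45 with Actinomycin D in the buffers, tagged with 1 hashtag antibody per mouse, pooled, and sequenced in 5 droplet libraries from 3 pools of mice.

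After filtering, 49988 human cells of 26 mice remained of 68217 barcodes. They came from 6 Lecanemab-treated and 5 IgG1-treated FIRE-deleted mice and from 7 Lecanemab-treated and 8 IgG1-treated FIRE-intact mice. Each mouse gave 871 to 3616 cells and 3502270 to 12764000 human UMIs (unique molecular identifiers, each marking 1 captured transcript), with a median of 2784 to 6004 UMIs per cell. Another mouse, AB09, had 1 cell and was left out. Libraries shared 23 to 181 cell barcodes pairwise. Pool 1 held 3 FIRE-deleted and 7 FIRE-intact mice, pool 2 held 3 and 3, and pool 3 held 5 and 5. Microglial marker genes summed to between 21892 and 29950 CPM (counts scaled to the size of the library) in every mouse, while lymphocyte markers summed to at most 7.56 CPM. Of the 6 dendritic cell markers, 4 were too low to be tested, and 4 of the 6 plasmacytoid dendritic cell markers were too. The 9 border macrophage markers summed to 1358 to 2557 CPM in FIRE-deleted mice and to 1144 to 3232 CPM in FIRE-intact mice. A pair of mice stood apart in the interferon-induced genes. AB12 (IgG1-treated, FIRE-intact) was the highest FIRE-intact mouse for 32 of the 41 genes. AB16 (IgG1-treated, FIRE-deleted) was the lowest of its group for 38 of them. Several results are therefore given with and without them. Both were singled out by the values of these same genes, so results without them describe dependence on single mice and are not separate support.

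Of 32 genes whose promoters were searched, 21 held the core letters of the element that the pathway acts through. RefSeq promoter windows (250 bases before the transcription start to 50 after it, build GRCh38.p14) were matched for 32 of the 41 genes, with 44 windows in all because some genes have several starts. The core of the response element was searched as GAAANNGAAA on either strand, where N is any base. It occurred in 26 of the 44 windows (59.1%) and in 1255 of all 35116 windows (3.57%). Windows that held it more than once numbered 14 of 44 (31.8%) against 91 of 35116 (0.259%). The gamma-activated site, searched as TTCNNNGAA, which reads the same on either strand, occurred in 13 of 44 windows (29.5%) and in 2689 of 35116 (7.66%).

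The 250 bases before the start are printed for 4 genes whose window held the element more than once and for STAT2, whose window did not hold it. Capitals mark each match of GAAANNGAAA or of its reverse complement. ISG15 encodes the ubiquitin-like interferon-induced modifier, and its window lies on the plus strand at chr1:1013247-1013496, where both matches overlap. IFI6, which encodes a small mitochondrial and endoplasmic reticulum protein, lies on the minus strand, with the window at chr1:27672193-27672442. IFIT1, which encodes a protein that binds the 5′ ends of foreign RNA, has its window on the plus strand at chr10:89392373-89392622, where the matches are on the opposite strand. IFI44L, a cytoplasmic antiviral protein gene, has its window on the plus strand at chr1:78620198-78620447. STAT2, which encodes the signal transducer itself, has its window on the minus strand at chr12:56360108-56360357.
ISG15: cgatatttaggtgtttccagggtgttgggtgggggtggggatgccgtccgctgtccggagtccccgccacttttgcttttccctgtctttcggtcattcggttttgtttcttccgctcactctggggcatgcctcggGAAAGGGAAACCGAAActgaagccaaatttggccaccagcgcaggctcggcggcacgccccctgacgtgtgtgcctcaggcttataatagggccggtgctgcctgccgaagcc
IFI6: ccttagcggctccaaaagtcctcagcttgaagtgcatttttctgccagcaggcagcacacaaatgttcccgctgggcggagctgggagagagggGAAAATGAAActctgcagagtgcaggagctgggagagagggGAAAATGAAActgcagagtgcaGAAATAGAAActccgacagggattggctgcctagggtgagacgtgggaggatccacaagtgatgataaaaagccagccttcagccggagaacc
IFIT1: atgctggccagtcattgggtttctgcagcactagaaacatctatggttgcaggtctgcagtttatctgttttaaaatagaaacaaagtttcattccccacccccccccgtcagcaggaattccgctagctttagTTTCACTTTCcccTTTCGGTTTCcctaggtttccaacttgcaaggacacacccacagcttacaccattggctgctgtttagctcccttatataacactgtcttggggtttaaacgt
IFI44L: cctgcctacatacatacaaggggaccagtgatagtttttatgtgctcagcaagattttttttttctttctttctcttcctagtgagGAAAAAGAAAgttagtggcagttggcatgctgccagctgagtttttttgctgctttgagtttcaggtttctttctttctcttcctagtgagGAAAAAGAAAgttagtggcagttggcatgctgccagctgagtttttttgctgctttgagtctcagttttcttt
STAT2: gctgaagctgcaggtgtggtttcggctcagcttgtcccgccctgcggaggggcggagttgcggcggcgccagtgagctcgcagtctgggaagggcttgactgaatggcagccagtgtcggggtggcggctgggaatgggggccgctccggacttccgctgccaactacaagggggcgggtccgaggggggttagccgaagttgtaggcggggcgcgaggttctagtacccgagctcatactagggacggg
The first match started 113 bases before the transcription start in ISG15, 156 in IFI6, 116 in IFIT1 and 164 in IFI44L. A match describes letters in these windows and was not tested as a binding site.

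Cells that carried many of the genes were a minority, at shares that differed widely between mice. Each cell was thinned to 1000 human UMIs so that depth was equal, and the number of the 41 genes with at least 1 UMI was counted. No gene was seen in 8.44% of cells and 1 to 3 genes in most of the others, whereas 5611 cells (11.2%) carried 8 or more, with a maximum of 29. Cells with 8 or more are called interferon-high below, as a range of counts and not as a cell type: 1678 cells lay just under the limit at 7 genes and 1240 just on it at 8. Interferon-high cells held from 9.31% of a mouse's UMIs of the 41 genes (AB16) to 63.5% (AB12), so in most mice the larger part lay in other cells.

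Interferon-high cells made up 1.99% of AB16, 8.04% of AB90, 8.79% of AB86, 13.5% of AB79 and 26.3% of AB56 among IgG1-treated FIRE-deleted mice. In Lecanemab-treated FIRE-deleted mice the share ran from 3.38% (AB92) through a median of 18.2% to 32.0% (AB93). These groups overlapped over most of their range. In FIRE-intact mice the share was 0.848% to 26.4% with a median of 2.12% under IgG1, and 1.79% to 19.5% with a median of 3.74% under Lecanemab. AB12 gave the 26.4%, and the next highest IgG1-treated FIRE-intact mouse had 10.3%. With pool as a term, the mean share was 5.78 ± 5.35 percentage points (SE) higher under Lecanemab in FIRE-deleted mice and 1.79 ± 4.55 points higher in FIRE-intact mice, differences of about the size of their error or smaller. Between genotypes it was 8.80 ± 3.54 points higher in FIRE-deleted mice, and 9.80 ± 3.13 points without AB12 (26 and 25 mice).

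**Figure D1:**
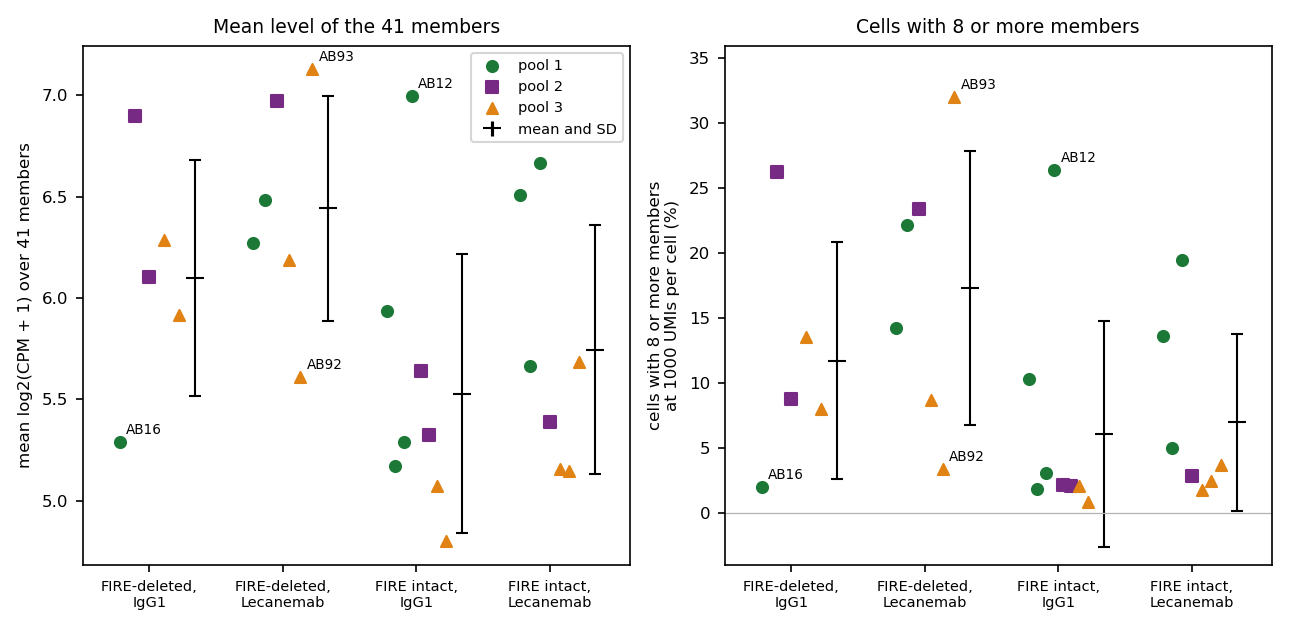
Mean log2(CPM + 1) over the 41 genes (left) and percent of cells with 8 or more of them after thinning to 1000 UMIs (right), 1 point per mouse by genotype and treatment, coloured by pool, with group means and SD. Group means of the share were 17.3% in Lecanemab-treated and 11.7% in IgG1-treated FIRE-deleted mice against 7.0% and 6.1% in FIRE-intact mice, and the points of all groups overlap.

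Mouse cells left in the libraries served as a background. In barcodes with at least 90% mouse UMIs, the 41 human genes took 0.336% to 0.709% of the stray human UMIs, against 0.380% to 0.534% in human cells of the same libraries. Stray human UMIs thus held these transcripts at about the share seen in the cells, and their source was not tested. Of 774 mouse barcodes in library 1, 1 had 8 or more of the genes, and none of the others did, at a median of 34 to 149 human UMIs per barcode, far fewer than in human cells.

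The genes also separated interferon-high cells from the rest unequally. Over mice, the median level of IFIT3, which acts with IFIT1 on foreign RNA, was 557 CPM in interferon-high cells and 34 CPM in other cells. ISG15 was at 1219 and 87.9 CPM, and RSAD2, which encodes the antiviral enzyme viperin, at 289 and 19.1 CPM. BST2, the tether that holds budding virus at the cell surface, was at 1132 and 482 CPM, and IFITM2, which restricts entry at endosomes, at 296 and 149 CPM. These ratios describe cells that were chosen by the same counts. In the other cells alone, the 41 genes took 0.392 ± 0.105% of UMIs in 11 FIRE-deleted mice and 0.269 ± 0.0839% in 15 FIRE-intact mice (mean ± SD). In pool 1 the values were 0.443%, 0.388% and 0.269% in FIRE-deleted mice and 0.238% to 0.480% in FIRE-intact mice. These cells too were chosen by the same counts, and the difference, taken without a pool term, was not tested.

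Lecanemab treatment of FIRE-deleted mice was compared next, since the study asked how the antibody changes human microglia in these hosts. All 41 genes had a higher fitted level under Lecanemab than under IgG1, with a median log2 fold change of 0.39 and a range of 0.09 to 1.5, but none passed an adjusted p of 0.05 (edgeR's quasi-likelihood test on counts summed per mouse, Benjamini-Hochberg over 13699 genes). Over all genes tested, 49.8% had a positive fold change and 0% passed. At an unadjusted p under 0.05, 3 of the 41 were higher, all listed below, against 4.12% of all genes. A sum over the cells of a mouse does not tell more carrying cells from more RNA in each. The treatment groups overlapped for each of the 41 genes, but overlap was not counted over all genes tested. The 41 genes moved together across mice, so their shared sign is not 41 separate observations.

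Marker genes of cell types and of dividing cells also differed in this comparison. Both tested monocyte and neutrophil markers, S100A8 and S100A9, had higher fitted levels under Lecanemab, at 3.23 ± 1.06 and 3.04 ± 1.01 on the log2 scale (edgeR unadjusted p = 0.00515 and 0.00573, adjusted p = 0.611 for both). The 6 markers of this list summed to 5.83 to 18.4 CPM in IgG1-treated and to 8.13 to 368 CPM in Lecanemab-treated FIRE-deleted mice, with the highest sum in AB93. Over the 26 mice, the other markers, S100A12, FCN1, VCAN and CCR2, had 1, 93, 7 and 15 UMIs and were too low to be tested. Of 15 microglial markers, 4 had positive fold changes, and P2RY12, P2RY13, TMEM119 and SALL1, at -0.29 to -0.21, had lower fitted levels at an unadjusted p under 0.05 (3.73% of all genes lower). All 4 proliferation genes had positive fold changes, and MKI67 and TOP2A (1.30 ± 0.51) had an unadjusted p under 0.05 in edgeR (4.12% of all genes higher). None of these markers passed an adjusted p of 0.05, and their part in the result was not tested.

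Among signal transducers, STAT2 was at 50.2, 66.5, 71.3, 81.6 and 84.8 CPM in the 5 IgG1-treated FIRE-deleted mice and at 64.2 to 110 CPM (median 78.5) under Lecanemab. Its log2 fold change was 0.26 ± 0.15 (SE; unadjusted p = 0.0886 in the edgeR fit). IRF7, the factor that amplifies interferon transcription, was at 31.3, 48.2, 65.8, 75.2 and 91.7 CPM under IgG1 and at 37.8 to 119 CPM (median 61.1) under Lecanemab, with a log2 fold change of 0.39 ± 0.32. The groups overlapped for both genes.

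Among RNA sensors and oligoadenylate synthetases, IFIH1, which encodes the double-stranded RNA sensor MDA5, was at 17.5, 21.4, 22.1, 23.1 and 28.8 CPM under IgG1 and at 22.9 to 39.7 CPM (median 32.5) under Lecanemab. Of the 6 Lecanemab-treated mice, 5 lay above the highest IgG1-treated mouse, and the log2 fold change was 0.49 ± 0.27 (edgeR unadjusted p = 0.0768). OAS3, whose product activates RNase L, was at 9.46 to 40 CPM under IgG1 and at 13.5 to 70.4 CPM under Lecanemab, with a log2 fold change of 0.82 ± 0.50. Its values under IgG1 were 9.46 in AB16, 14.7, 18.1, 25.8 and 40 in AB56, and the groups overlapped.

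In the IFIT family, IFIT2 was at 60.9, 68.1, 81.5, 82.6 and 150 CPM under IgG1 and at 75.1 to 205 CPM (median 151) under Lecanemab, with a log2 fold change of 0.69 ± 0.44. IFIT1 ran from 39.4 to 244 CPM under IgG1 and from 62.1 to 299 CPM under Lecanemab, with a log2 fold change of 0.59 ± 0.51. The highest IgG1-treated mouse, AB56, exceeded all but 1 of the Lecanemab-treated mice for IFIT1.

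In the ISG15 system, ISG15 was at 58.0, 200, 267, 275 and 511 CPM under IgG1 and at 153 to 832 CPM (median 229) under Lecanemab, with a log2 fold change of 0.65 ± 0.49. UBE2L6, the enzyme that hands ISG15 to its targets, was at 33.3, 45.6, 53.0, 60.4 and 83.7 CPM against 47.4 to 102 CPM (median 55.6), with a log2 fold change of 0.48 ± 0.22 (edgeR unadjusted p = 0.0347, adjusted p = 0.611). HERC5, the ligase that attaches ISG15, had a log2 fold change of 0.47 ± 0.35. Under Lecanemab 2 of 6 mice exceeded the highest control for UBE2L6 and 3 of 6 for HERC5.

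Among membrane restriction factors, IFITM1 was at 0.241 CPM in AB16, 4.09, 4.94 and 5.33 CPM in the next mice and 13.5 CPM in AB56 under IgG1, and at 1.17 to 37.5 CPM (median 2.82) under Lecanemab. Its log2 fold change of 1.5 ± 0.66 was the largest of the 41 (edgeR unadjusted p = 0.0314, adjusted p = 0.611), although the median under Lecanemab lay below that under IgG1, and at most 3.02% of a mouse's cells held a UMI of it. IFITM2 was at 125, 135, 158, 189 and 226 CPM against 155 to 263 CPM (median 167), with a log2 fold change of 0.32 ± 0.15 (edgeR unadjusted p = 0.0427, adjusted p = 0.62). The groups overlapped for both genes. BST2 had a log2 fold change of 0.18 ± 0.17.

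Among nucleic acid enzymes, RSAD2 was at 16.4, 44.5, 47.3, 47.5 and 91.2 CPM under IgG1 and at 40.8 to 150 CPM (median 70.8) under Lecanemab, with a log2 fold change of 0.81 ± 0.57. ISG20, an RNA exonuclease gene seen in at most 0.542% of a mouse's cells, had a log2 fold change of 1.03 ± 0.58, and SAMD9, a translational repressor gene, had the smallest of the 41 at 0.09 ± 0.15. In the IFI6, IFI27 and IFI44 group, IFI27 was at 69.4 to 361 CPM under IgG1 and at 42.4 to 418 CPM under Lecanemab, and IFI35 at 33.5 to 78.2 and 40.7 to 95 CPM. Their log2 fold changes were 0.82 ± 0.63 and 0.33 ± 0.23. IFI6, at 0.26 ± 0.55, and IFI44L, at 0.20 ± 0.60, had errors larger than their change. Among the remaining effectors, the values were 0.30 ± 0.24 for SP110, a nuclear body protein gene, 0.30 ± 0.29 for EPSTI1 and 0.13 ± 0.27 for PARP14, an ADP-ribosyltransferase gene.

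The size of the treatment difference rested on few mice. Without AB16, 28 of the 41 genes were higher under Lecanemab (49.9% of all genes) and the median log2 fold change was 0.11, and without AB93, 34 were higher (50.9% of all genes) and the median was 0.12. The count at an unadjusted p under 0.05 was 23 with no filter on low counts (4.43% of all genes), 23 with each genotype fitted alone (4.08% of all genes), and 0 without the pool term (1.65% of all genes). With no filter, IFITM1 passed at an adjusted p of 0.0388 (edgeR), against 0.286% of all genes.

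**Figure D2:**
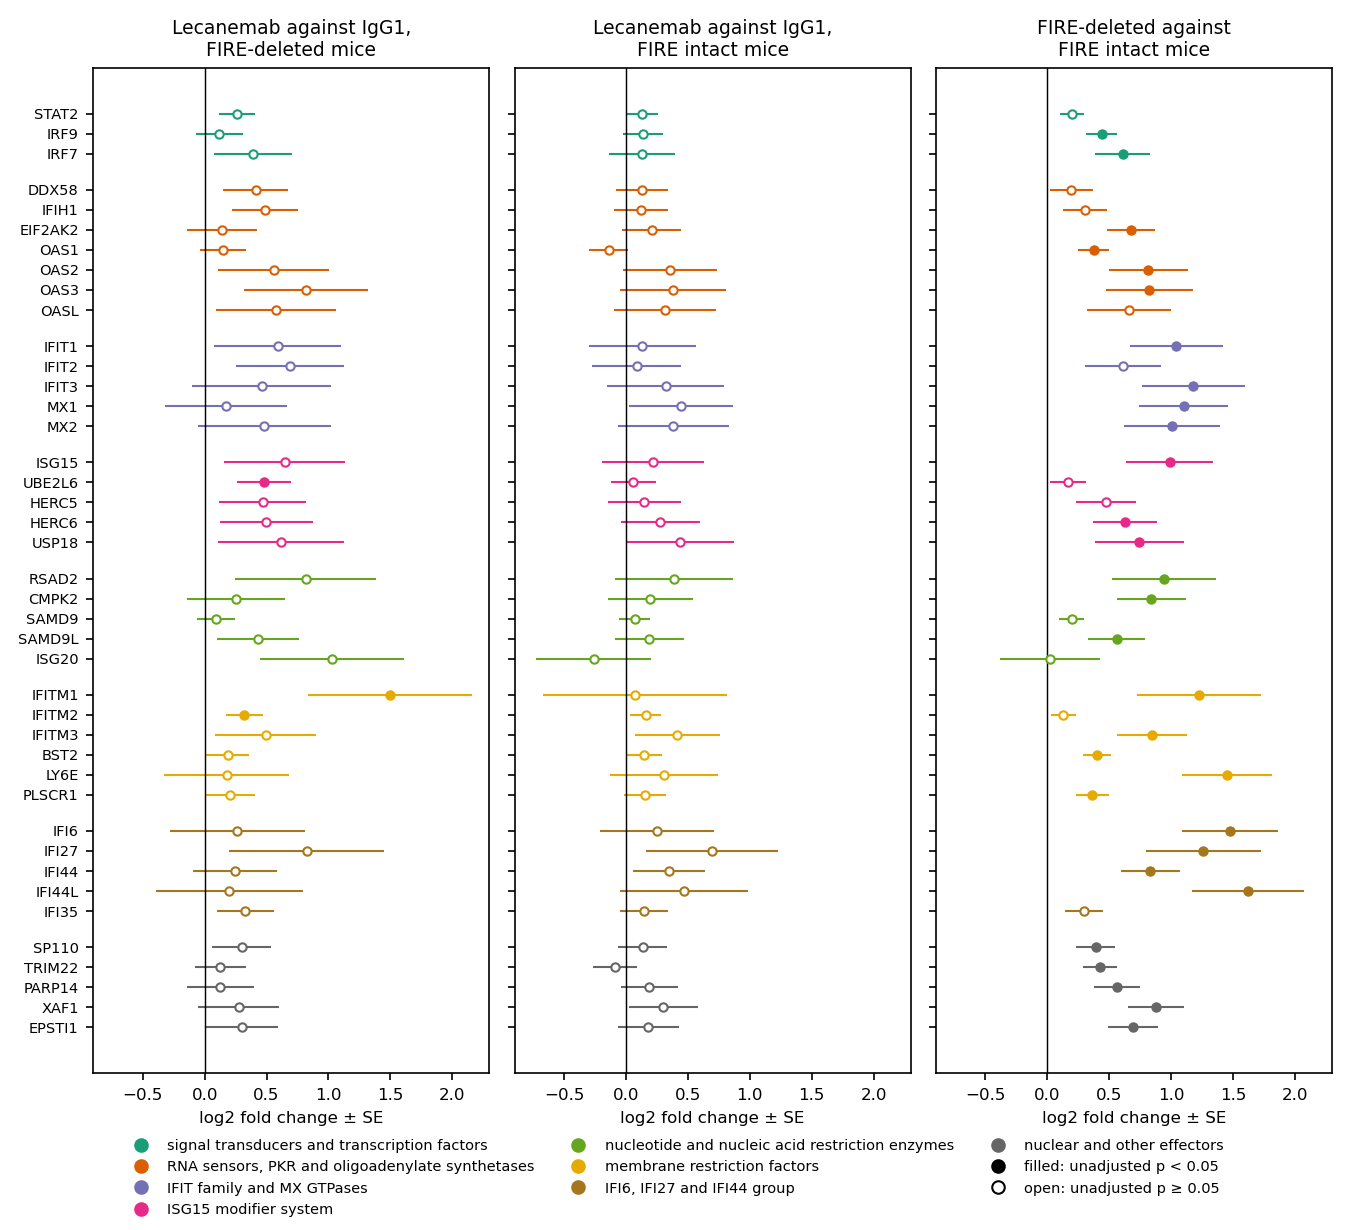
Log2 fold change ± SE of each of the 41 genes, ordered by role, for Lecanemab against IgG1 in FIRE-deleted mice, the same in FIRE-intact mice, and FIRE-deleted against FIRE-intact mice. Medians were 0.39, 0.19 and 0.66, and the vertical line marks no change.

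In FIRE-intact mice, 38 of the 41 genes had higher fitted levels under Lecanemab, with a median log2 fold change of 0.19 and a range from -0.26 (ISG20) to 0.69 (IFI27), against 47.8% positive among all genes. None passed at an adjusted p of 0.05 (0% of all genes) or at an unadjusted p under 0.05 (2.23% of all genes higher; edgeR's quasi-likelihood test). ISG15 was at 52.2 to 346 CPM (median 105) under IgG1 and 90.2 to 220 CPM (median 141) under Lecanemab, and IFI44L at 21.2 to 525 CPM (median 69.6) and 55.4 to 461 CPM (median 132). The groups overlapped fully. AB12 held the highest control value for both, 346 and 525 CPM. Without AB12, all 41 genes were higher under Lecanemab (48% of all genes), 23 at an unadjusted p under 0.05 (2.72% of all genes) and none at an adjusted p of 0.05 (0% of all genes), with a median of 0.60. AB12 was singled out by its levels of these same genes, so this fit is not separate support.

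The treatment effect did not differ detectably between genotypes. The interaction was positive for 33 of 41 genes (51.9% of all genes), with a median of 0.16 on the log2 scale, and no gene passed at an unadjusted (2.43% of all genes higher) or adjusted (0%) p under 0.05 in edgeR. Its widest case, IFITM1, was 1.43 ± 0.98. Averaged over genotypes, all 41 were higher (48.8% of all genes), with a median of 0.30. IFITM2 alone had an unadjusted p under 0.05 (0.24, edgeR unadjusted p = 0.0235), against 3.95% of all genes higher, and none passed adjustment (0% of all genes).

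The comparison of genotypes gave larger values. With treatments averaged and pool as a term, all 41 genes were higher in FIRE-deleted than in FIRE-intact mice (49% of all genes), with a median log2 fold change of 0.66 and a range of 0.02 (ISG20) to 1.62 (IFI44L). At an unadjusted p under 0.05, 30 of 41 were higher, against 6.84% of all genes. None passed an adjusted p of 0.05, against 0.409% of all genes (edgeR's quasi-likelihood test). The median FIRE-deleted mouse lay above the median FIRE-intact mouse for all 41 genes, and the genotypes overlapped for each of them. Neither was counted over all genes tested. The mean of log2(CPM + 1) over the genes was 6.29 ± 0.567 in FIRE-deleted mice (SD, n = 11) and 5.63 ± 0.640 in FIRE-intact mice (SD, n = 15), 0.69 ± 0.24 (SE) higher with pool as a term.

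By role, the IFI6, IFI27 and IFI44 group had the highest median log2 fold change, 1.26 over 5 genes. IFI6 was at 88.8, 251, 375, 572 and 923 CPM in IgG1-treated and at 143 to 1042 CPM (median 363) in Lecanemab-treated FIRE-deleted mice. In FIRE-intact mice it was at 49.8 to 376 CPM (median 144) under IgG1 and 75.5 to 406 CPM (median 156) under Lecanemab. The median FIRE-deleted mouse, at 367 CPM, lay below the highest FIRE-intact mouse, at 406 CPM. The log2 fold change was 1.47 ± 0.39 (edgeR adjusted p = 0.0754). IFI44L was at 90.8, 197, 215, 404 and 554 CPM and at 104 to 550 CPM (median 342) in FIRE-deleted mice under IgG1 and Lecanemab, with a log2 fold change of 1.62 ± 0.45 (edgeR adjusted p = 0.0946). AB12 was within its range at 525 CPM. IFI27 gave 1.26 ± 0.46.

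The IFIT and MX genes had a median of 1.04 over 5 genes, with IFIT1 at 1.04 ± 0.37 and IFIT2 at 0.61 ± 0.31. RNA sensors, the kinase gene EIF2AK2 (PKR, which halts translation) and oligoadenylate synthetases had a median of 0.66 over 7, with OAS3 at 0.82 ± 0.35 and IFIH1 at 0.30 ± 0.18. The ISG15 system had a median of 0.63 over 5, with ISG15 at 0.99 ± 0.35, HERC5 at 0.48 ± 0.24 and UBE2L6 at 0.17 ± 0.14. The membrane factors had a median of 0.62 over 6, with BST2 at 0.40 ± 0.12, IFITM1 at 1.23 ± 0.50 and IFITM2 at 0.13 ± 0.10. Nuclear and other effectors had a median of 0.56 over 5, all 5 at an unadjusted p under 0.05, with EPSTI1 at 0.69 ± 0.20, PARP14 at 0.56 ± 0.18 and SP110 at 0.39 ± 0.16. Nucleotide and nucleic acid enzymes had a median of 0.56 over 5, with RSAD2 at 0.94 ± 0.42 and SAMD9 at 0.20 ± 0.10, and the transducers had the lowest median, 0.44 over 3, with IRF7 at 0.61 ± 0.22 and STAT2 at 0.20 ± 0.10. Median fold changes were thus positive in each role in this fit over all pools, and roles were not tested. STAT2, UBE2L6, IFITM2 and ISG20 (0.02 ± 0.41) were among the smallest.

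The lowest adjusted p belonged to LY6E, a membrane protein gene, named after its values were seen. It was at 33.5, 86.0, 148, 155 and 289 CPM in IgG1-treated FIRE-deleted mice and at 55.8 to 235 CPM (median 117) under Lecanemab, against 15.8 to 152 CPM (median 32.3) and 25.2 to 140 CPM (median 50.0) in FIRE-intact mice. Its log2 fold change was 1.45 ± 0.36 (edgeR adjusted p = 0.0617). XAF1, a proapoptotic gene named for the same reason, followed at 0.88 ± 0.23 (edgeR adjusted p = 0.0686).

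Calls between genotypes turned on single mice and on settings. Without AB12, 15 of the 41 genes passed an adjusted p of 0.05 in edgeR, led by LY6E at 1.58 (adjusted p = 0.00958), XAF1 at 0.96 and IFI44 at 0.93, against 1.1% of all genes. Without AB16, 10 passed, against 0.623% of all genes. Both mice were singled out by their levels of these same genes, so these counts are not separate support for a difference. With no filter on low counts 32 passed (1.94% of all genes), and with DESeq2 7 did (1.52% of all genes). Within IgG1-treated mice, 39 of 41 genes were higher in FIRE-deleted mice (49.7% of all genes), 11 at an unadjusted p under 0.05 (5.45% of all genes) and none after adjustment (0% of all genes), with a median of 0.53. Within Lecanemab-treated mice, all 41 were higher (48.7% of all genes), 31 at an unadjusted p under 0.05 (3.73% of all genes) and none after adjustment (0.0219% of all genes), with a median of 0.75. Of 9 border macrophage markers, 8 had lower fitted levels in FIRE-deleted mice and 1 was higher, against 49% of all genes higher. At an unadjusted p under 0.05, 5 were lower (8.61% of all genes lower). SEPP1 at -0.66 alone passed (edgeR adjusted p = 0.0433), against 0.409% of all genes. FCER1A, an IgE receptor chain gene used here as a dendritic cell marker, was higher at 1.46 (edgeR adjusted p = 0.0136). The dendritic cell markers summed to 13.4 to 108 CPM in FIRE-deleted mice and to 10.4 to 29.8 CPM in FIRE-intact mice. Proliferation genes had lower fitted levels in FIRE-deleted mice too, with all 4 negative and 3 at an unadjusted p under 0.05, against 8.61% of all genes lower. The part of these markers in the result was not tested.

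**Figure D3:**
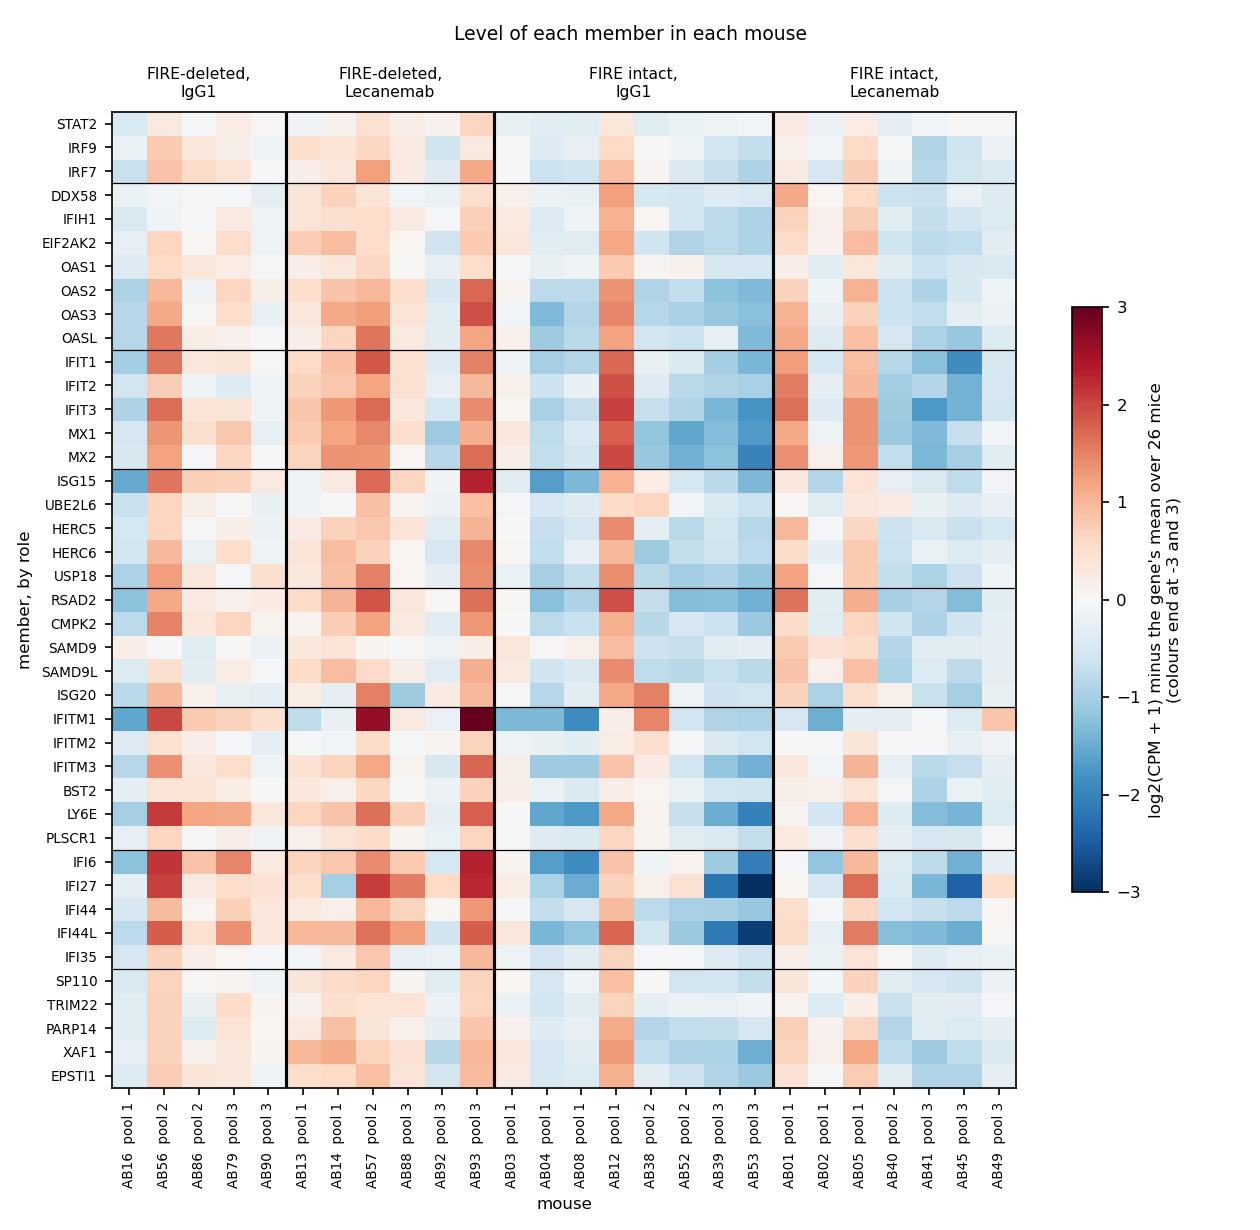
Log2(CPM + 1) of each of the 41 genes, by role, in each of the 26 mice, by group, less the gene's mean over mice, with colours ending at -3 and 3. AB16, AB92 and AB53 were low, and AB56, AB93, AB57 and AB12 high, across nearly all genes.

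The fitted genotype difference varied between pools, but no gene passed adjustment for that variation. Terms for genotype within each pool were added after the data were seen. In pool 1, 6 of the 41 genes had a fitted fold change above 0 on the log2 scale (49% of all genes), with a median of -0.26 and a range of -1.02 to 0.15. None had an unadjusted p under 0.05 (2.18% of all genes higher) or an adjusted p under it (0%). The fit gave both treatments equal weight. By plain differences of group means in pool 1, 14 of the 41 were positive (49.6% of all genes), with a median of -0.04. Without AB12, 34 were positive by that measure (49.3% of all genes), with a median of 0.12. In pool 2, all 41 were higher in FIRE-deleted mice, 36 at an unadjusted p under 0.05 (8.37% of all genes) and 4 after adjustment (1.43% of all genes), with a median of 1.21. In pool 3, all 41 were higher, 39 at an unadjusted p under 0.05 (3.38% of all genes) and 1 after adjustment (0.073% of all genes), with a median of 1.05 (edgeR's quasi-likelihood test). The difference itself, pools 2 and 3 less pool 1, was positive for all 41 genes, with a median of 1.41. It had an unadjusted p under 0.05 for 40 genes, all but TRIM22 (3.09% of all genes), and an adjusted p under 0.05 for none (0% of all genes).

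The genes that passed in pool 2 were MX1, an antiviral GTPase gene, at 2.43 ± 0.59 (edgeR adjusted p = 0.0408), CMPK2, a mitochondrial nucleotide kinase gene, at 1.83 ± 0.47 (adjusted p = 0.0465), SAMD9 at 0.67 ± 0.17 (adjusted p = 0.046) and IFI44, a cytoplasmic antiviral gene, at 1.51 ± 0.36 (adjusted p = 0.0368). IFI44 also passed in pool 3, at 1.38 ± 0.27 (edgeR adjusted p = 0.0483). Each was higher in FIRE-deleted mice.

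In pool 2, IFI44 was at 61.3, 114 and 118 CPM in FIRE-deleted mice and at 29.6, 33.4 and 38.9 CPM in FIRE-intact mice. In pool 3 it was at 61.5, 74.6, 93.1, 97.5 and 147 CPM against 26, 29, 33.7, 35.9 and 61.1 CPM. In pool 1 it was at 41.8, 65.0 and 71.8 CPM in FIRE-deleted mice and at 35.3 to 115 CPM (median 57.4) in FIRE-intact mice. Genotypes did not overlap in pool 2, nor in pool 3, where the nearest mice were at 61.5 and 61.1 CPM. They overlapped in pool 1, where FIRE-intact mice reached higher. IFI44 is shown because it passed in both pools, and separation was not counted over all genes tested. MX1 was at 114, 203 and 221 CPM against 26.6, 35.2 and 37.1 CPM in pool 2, but at 57.2, 139 and 187 CPM against 47.7 to 284 CPM in pool 1.

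The share of interferon-high cells was apart between genotypes in pool 2 and overlapped in pools 1 and 3. It was 8.79% to 26.3% in FIRE-deleted and 2.11% to 2.89% in FIRE-intact mice of pool 2, and 3.38% to 32.0% against 0.848% to 3.74% in pool 3. In pool 1, FIRE-deleted mice had 1.99%, 14.2% and 22.2%, and FIRE-intact mice 1.89% to 26.4%, with means of 12.8% and 11.4%. Of the 7 FIRE-intact mice of pool 1, AB12, AB05 (19.5%), AB01 (13.6%), AB03 (10.3%) and AB02 (4.97%) each lay above every FIRE-intact mouse of pools 2 and 3, whereas AB08 (3.08%) and AB04 (1.89%) lay within their range. Without AB12, the pool 1 median of the 41 fitted fold changes was -0.0072, with 20 genes positive (48.8% of all genes). In these fits, 11 genes passed in pool 2 (1.36% of all genes) and 5 in pool 3 (0.146% of all genes). Treatments were not equally spread over pools, with 1 IgG1-treated FIRE-deleted mouse, AB16, in pool 1. The mean log2(CPM + 1) over the genes was 5.29 in AB16, against 6.27 in AB13 and 6.48 in AB14, the other FIRE-deleted mice there. FIRE-intact mice of pool 1 averaged 6.03. Genotype within pools was not fitted without AB16, so how far the pool 1 values rest on this mouse was not tested.

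Within pools, the mean log2(CPM + 1) over the genes was 1.09 higher under Lecanemab than in AB16, the lone control, among FIRE-deleted mice of pool 1, 0.47 higher in pool 2 and 0.21 higher in pool 3, with 1 to 3 mice per arm. In FIRE-intact mice it was 0.43 higher in pool 1 (0.81 without AB12), -0.09 in pool 2 and 0.39 higher in pool 3. In FIRE-deleted mice, pool 1 held 1 control and pool 2 held 1 Lecanemab-treated mouse, and without AB93 the value in pool 3 was -0.20, so the sign within pools rested on single mice.

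Levels of the 41 genes varied together across mice and cells. After group and pool were taken out, all 820 pairs of genes correlated positively across the 26 mice (Pearson r 0.42 to 0.98, median 0.89), which share libraries and their scaling. Across cells within a mouse, averaged over mice, all 820 pairs were positive but weaker (0.01 to 0.42, median 0.12), and 818 remained so with each cell thinned to 1000 UMIs (median 0.04). Cells share depth and sparse counts, so these values are a description. The strongest pair was IFIT1 and IFIT3 (0.42), followed by IFITM3 and IFI6 (0.38) and by IFI6 and IFI44L (0.38). ISG15 followed the mean of the other 40 genes most closely across mice (0.99).

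A few genes varied apart. IFI27 had the lowest correlation with the mean of the others (0.69) and the largest spread between mice (SD 1.23 on the log2 scale). Next lowest in correlation were ISG20 (0.75), BST2 (0.78) and IFITM2 (0.79). ISG20 averaged 2.48 CPM, near the floor, against 557 CPM for BST2, and the part of low counts in its value was not tested. BST2 and IFITM2 were also the genes whose levels differed least between interferon-high and other cells, and their spread between mice was small (0.31 and 0.26). In a principal component analysis of the levels, the first component held 80.5% of the variance and the second 8.65%. On the second, the 10 mice of pool 1 scored 1.07 to 2.80, the 6 mice of pool 2 scored -4.14 to -1.90 and the 10 mice of pool 3 scored -2.16 (AB93) to 0.653, so pool 1 lay apart from both others, which overlapped through AB93. This component set SAMD9, DDX58 (the RNA sensor RIG-I) and PARP14 against IFITM1, IFITM2 and UBE2L6.

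Genes with and without the response element in their promoter window were set side by side. The 21 genes with GAAANNGAAA had a median log2 fold change between genotypes of 0.83 and a median correlation across cells of 0.15, and the 11 without it had 0.39 and 0.10. STAT2, IRF9, UBE2L6 and IFI35 were among those without it in these windows, and ISG20 and SAMD9, with small differences, among those with it. The division was not tested.

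As a list, other genes of the pathway had smaller median fold changes. Of 52 other genes of interferon induction and signalling, 33 were tested. The 18 ligand genes gave 1 tested gene, IFNE, and the others were too low to be tested. Whether their transcripts were absent or missed at this depth was not tested. Under Lecanemab in FIRE-deleted mice, 19 of 33 had positive fold changes, and 1 had an unadjusted p under 0.05, against 3.73% of all genes lower and 4.12% higher. This was TMEM173, which encodes the DNA-sensing adaptor STING, at -0.25 ± 0.10 (edgeR unadjusted p = 0.0221, adjusted p = 0.611). IKBKE, a kinase gene of interferon induction, was at 0.38 ± 0.19, TLR3, an endosomal RNA receptor gene, at 0.17 ± 0.08 and SOCS3, a feedback inhibitor gene, at 1.31 ± 0.67. Between genotypes, 24 of 33 were positive, 7 at an unadjusted p under 0.05 (6.84% of all genes higher) and none after adjustment (0.409% of all genes), with a median of 0.06 against 0.66 for the 41 induced genes. TMEM173 was at 0.23 ± 0.07, and the receptor genes IFNAR1 and IFNAR2 at -0.05 ± 0.04 and 0.04 ± 0.06.

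Genes of interferon gamma and of antigen presentation on MHC class I were set beside them. Of 17 tested interferon gamma genes, 5 had positive fold changes between genotypes (median -0.10), and of 19 MHC class I genes, 8 did (median -0.05), against 49% of all genes. Under Lecanemab in FIRE-deleted mice, 14 of 17 and 17 of 19 were positive, with medians of 0.14 and 0.21, against 49.8% of all genes. At an unadjusted p under 0.05 in edgeR, 2 interferon gamma genes were higher and 1 was lower. Of the MHC class I genes, 5 were higher and 0 lower. Over all genes, 4.12% were higher and 3.73% lower. CXCL10, a T cell chemokine gene named after its values were seen, was at 1.90 ± 0.67 and TAP1, a peptide transporter gene, at 0.61 ± 0.22, with unadjusted p = 0.009 and 0.0116 and adjusted p = 0.611 for both in edgeR.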

How the data were processed

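Per the study's methods, reads were aligned by the authors to a joint GRCh38 and mm10 genome with Cell Ranger 6.1.2 (the submitters' processing notes also name Seurat 4.2.3), and the deposited matrices hold raw UMI counts of genes and hashtags. Hashtags were called per library with HTODemux (Seurat 5.3.0, quantile 0.99). Singlets with at least 1000 human UMIs and at most 5% mouse UMIs were kept. Human counts were summed per mouse and fitted in edgeR 4.0.16 (R 4.3.3; TMM, filterByExpr, glmQLFit) with 4 groups and pool as a term, over 13699 genes and 26 mice, with Benjamini-Hochberg adjustment. The code was tested on simulated counts. Mice are the replicates, and nothing in the labels ties them to litters.

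Mice were mapped by the hashtag lists in the labels, which give different mice for library 4 than for library 5 of the same pool. The labels hold fewer IgG1-treated FIRE-deleted mice than the study describes. Cells were not reclustered, and macrophages stayed in. Doublets within a mouse stayed in, since the automatic Scrublet cut marked 1 cell.

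Named genes were the 2 of smallest p in FIRE-deleted mice in each of 8 role groups, the 5 of highest mean CPM, the largest and smallest fold change in each genotype, members past the threshold, and the 4 pathway genes of smallest p. The members and lists were chosen with earlier results of these data known. Alternatives covered DESeq2 1.42.0, library totals, no filter, no pool term, separate genotypes, cell filters, hashtag quantile, thinning, library 4 and each mouse in turn. Promoters came from RefSeq windows, with 1 member on a chromosome not used here.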

Additional observations from a re-analysis of the deposited data

Results flagged for a closer look

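Of 96 sets of mice tested (a named gene or summary within 1 group), 11 had a mouse far from the rest by Dixon's ratio of its gap to the range of the group. Chance gives about 1 in 20, and the sets are not independent because the genes vary together. AB12 was the highest IgG1-treated FIRE-intact mouse in 8 of them. Its ratios were 0.629 for the share of cells with 8 or more genes, 0.6 for STAT2, 0.557 for OAS3, 0.608 for IFIT2, 0.602 for IFIT1, 0.629 for HERC5, 0.561 for RSAD2 and 0.553 for IFI35, against a critical value of 0.526 for 8 mice. AB12 held 3507 cells at a median of 3294 UMIs, and 63.5% of its UMIs of the 41 genes lay in interferon-high cells, against 9.31% in AB16.

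AB92 was the lowest Lecanemab-treated FIRE-deleted mouse for EPSTI1 (0.626) and IFI44L (0.655), against a critical value of 0.625 for 6 mice. AB05 was the highest Lecanemab-treated FIRE-intact mouse for IFITM2 (0.594, critical value 0.568 for 7 mice). The causes were not tested.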

How the results depend on the processing

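No paired analysis was possible because mice of different groups share only a number given in order, and no label ties them. In FIRE-deleted mice, the Lecanemab count past an adjusted p of 0.05 was 1 with no filter on low counts, and the count at an unadjusted p under 0.05 was 23 with no filter, 23 with each genotype alone, 0 without the pool term and 0 to 9 with single mice left out. With no filter, the unadjusted count was 3 in FIRE-intact mice, 4 for the interaction and 29 for the average, and with single mice left out it ran 0 to 23, 0 to 1 and 0 to 29. The average gave 0 without the pool term, 3 without interferon-high cells, and 2 at a hashtag quantile of 0.95, at 2000 UMIs, with the study's cell filter, without library 4 or without cells of 5 or more macrophage markers (chosen after seeing the data).

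Between genotypes, the count past an adjusted p of 0.05 was 3 with library totals, 32 with no filter and 7 with DESeq2. It was 1 with the study's cell filter, 1 without interferon-high cells, 4 in pool 2 and 1 in pool 3. With single mice left out it ran from 0 to 15. The fitted pool 1 median was -0.26, and plain differences of group means there had a median of -0.04. The difference in share was 19.5 points at 5 or more genes, 22.4 thinned to 2000 UMIs, 19.1 unthinned and 1.97 at 12 or more genes. SAMD9 turned to -0.037 under Lecanemab without interferon-high cells and to -0.024 between genotypes without the pool term. ISG20 turned to -0.0076 between genotypes without cells of 3 or more macrophage markers and -0.029 without library 4. With single mice left out, ISG20 ran -0.13 to 0.23 between genotypes, and under Lecanemab IFI6 ran -0.30 to 0.66, PARP14 -0.11 to 0.36, IFI44L -0.14 to 0.58 and SAMD9 -0.025 to 0.16. Removing Scrublet's own calls was not run, and ISG20 was too low to be tested without interferon-high cells. The causes were not tested.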
